A study of Mus musculus with 6 samples.

Results

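The genes described here make sterols and fatty acids and control that synthesis, in dermal fibroblasts of newborn mice given 1 of 3 hydroxylated sterols. The 35 members were chosen by gene symbol: 18 of the path from acetyl-CoA through mevalonate and squalene to cholesterol (the sterol arm), 11 of fatty acid supply, synthesis, elongation and desaturation (the fatty acid arm), and 6 genes of control and transport. Of these, 30 had a row of their own symbol in the 46958-row table, and 29 of the 30 reached a mean of 1 FPKM over the 6 libraries and were among the 12673 rows tested. Fdps, Tm7sf2, Scd2 and Srebf1 lay on rows merged with other symbols, Idi1 was near 0, and Mvd was not analysed here.

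The libraries were made from RNA of early-passage fibroblasts from the dermis of pups 1 to 2 days old, with cells of different mice pooled. Per the labels, the knockout (KO) cells were RORγ-/- and the wild-type (WT) cells RORγ+/+. RORγ is a nuclear receptor that binds sterols. Each genotype was treated with 20(OH)L3, 20(OH)Cholesterol or 20(OH)7DHC at 100 nM for 24 h, in medium with 10% charcoal-stripped serum and 0.1% ethanol. Each combination is a lone library, and none with ethanol alone was analysed here. The genotype was that of the mice, so KO and WT cells may also differ in what happened before culture. The 3 libraries of a genotype differ in sterol, and p-values rest on these 6 libraries only. With no combination repeated, a genotype difference that varies between sterols counts as noise, and no p-value measures spread between replicates. 20(OH)7DHC differs from 20(OH)Cholesterol by an added double bond in the second ring, and 20(OH)L3, a lumisterol derivative, has the same connectivity as 20(OH)7DHC with another orientation at the ring junctions.

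Cells sense sterols in the endoplasmic reticulum. SCAP escorts the precursors of the SREBP transcription factors to the Golgi, where they are cut and released to the nucleus, and INSIG proteins hold SCAP back when sterols are plentiful. SREBP2 acts mainly on genes of cholesterol synthesis and SREBP1 mainly on genes of fatty acid synthesis, together with the CCAAT-binding factor NF-Y at many promoters. Hydroxylated sterols bind INSIG, and in dermal fibroblasts, as in most cells, taking sterol out of the serum raises synthesis.

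The promoters of 4 members are shown. Nsdhl, Insig1 and Cyp51 were at least 1 lower (log2) in KO with 20(OH)L3 than with 20(OH)Cholesterol. Fads2 and Acat2 were too, and are not shown. Hmgcs1 holds the classical sterol element. Each promoter is the 250 bases before the RefSeq start, on the gene's strand, from the RefSeq table for GRCm38.p6. The windows are chr13:119690101-119690350 (plus strand) for Hmgcs1, chr5:4104698-4104947 (minus strand) for Cyp51, chrX:72918271-72918520 (plus strand) for Nsdhl and chr5:28071162-28071411 (plus strand) for Insig1. Capitals mark the sterol element TCACNCCAC, the CCAAT box CCAAT and the E-box CACGTG on either strand, so that a CCAAT box on the other strand reads ATTGG.
Hmgcs1: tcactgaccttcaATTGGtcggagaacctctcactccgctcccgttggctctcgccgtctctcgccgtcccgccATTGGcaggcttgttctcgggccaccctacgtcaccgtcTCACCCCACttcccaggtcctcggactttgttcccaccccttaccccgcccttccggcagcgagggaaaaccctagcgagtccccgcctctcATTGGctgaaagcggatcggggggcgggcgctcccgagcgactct
Cyp51: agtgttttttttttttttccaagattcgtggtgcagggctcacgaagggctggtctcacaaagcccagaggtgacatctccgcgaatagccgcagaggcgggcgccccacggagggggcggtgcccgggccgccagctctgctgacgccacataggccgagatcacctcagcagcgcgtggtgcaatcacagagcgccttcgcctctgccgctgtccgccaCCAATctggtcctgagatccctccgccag
Nsdhl: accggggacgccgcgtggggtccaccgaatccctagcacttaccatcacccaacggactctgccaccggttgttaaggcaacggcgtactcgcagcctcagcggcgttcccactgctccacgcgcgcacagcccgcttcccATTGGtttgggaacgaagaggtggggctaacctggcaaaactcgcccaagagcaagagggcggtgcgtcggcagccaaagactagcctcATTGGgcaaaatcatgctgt
Insig1: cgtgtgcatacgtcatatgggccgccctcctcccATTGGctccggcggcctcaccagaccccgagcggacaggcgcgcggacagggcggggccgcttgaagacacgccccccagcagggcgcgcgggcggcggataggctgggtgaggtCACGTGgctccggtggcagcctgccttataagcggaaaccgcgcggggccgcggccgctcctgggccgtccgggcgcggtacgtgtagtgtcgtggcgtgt

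The Hmgcs1 window held the sterol element, with its first base at -137 from the start, and CCAAT boxes at -237, -176 and -45. Cyp51 had a CCAAT box at -29, Nsdhl had CCAAT boxes at -109 and -20, and Insig1 had one at -216 and an E-box at -101. The table matched 28 of the 35 members, with 37 windows. The element TCACNCCAC was in 1 of these 37 windows, and in 1.05% of all 32851 windows of the same length. CCAAT was in 23 of the 37 (62.2%), belonging to 22 of the 28 genes, and in 33.8% of all windows. CACGTG was in 6 of the 37 (16.2%), belonging to Dhcr7, Elovl5, Hsd17b7, Insig1, Sc5d and Scap, and in 6.02% of all windows. The motifs do not overlap each other in these 4 windows, and a match is a run of letters, not a measured binding site.

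The libraries were uneven. The depth estimated from low values was 9100000, 7700000 and 13300000 fragments for KO with 20(OH)L3, with 20(OH)Cholesterol and with 20(OH)7DHC, against 12600000 to 13200000 for the WT libraries. KO with 20(OH)L3 and KO with 20(OH)Cholesterol read high on short transcripts. Among tested protein-coding rows of 1000 to 2000 nt, the median log2 KO minus WT was 0.53 and 0.49 with these sterols. It was 0.02 with 20(OH)7DHC. For transcripts of at least 6000 nt it was -0.37, -0.39 and 0.02 with 20(OH)L3, with 20(OH)Cholesterol and with 20(OH)7DHC. The fibroblast marker list (8 of 10 with a row) summed to 4470 to 5886 FPKM in KO libraries and 6925 to 7230 FPKM in WT libraries. Most of this was Vim, at 4074 to 5014 FPKM in KO and 2844 to 3345 FPKM in WT. The other 7 markers summed to 396 to 872 FPKM in KO and 3580 to 4385 FPKM in WT, and 7 of 7 were lower in all KO libraries than in any WT library. Among them, Dcn was at 5.74 to 21.2 FPKM in KO against 1148 to 1489 FPKM in WT, and Lum was 0 to 0.0687 FPKM in KO against 10.2 to 19.3 FPKM in WT. Division genes (3 of 4 with a row) summed to 6.36 to 13.5 FPKM in KO and 33.0 to 39.7 FPKM in WT. The Y-linked Eif2s3y was at 0 to 1.41 FPKM in KO and at least 26.9 FPKM in WT, so genotype and the sex of the pooled pups cannot be told apart (Nsdhl and Ebp are X-linked members). Within KO, Eif2s3y was at 1.41 FPKM with 20(OH)L3 and at 0 with the other sterols. Ddx3y, also Y-linked, was at 1.22 FPKM in KO with 20(OH)L3, 0 with 20(OH)Cholesterol and 0.0521 with 20(OH)7DHC. The part of transcript length, division and sex in the differences below was not tested, and fewer cells of a type and less RNA per cell cannot be told apart in bulk samples.

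Markers of other lipid-making skin cells were also read. The adipocyte list reached 1 FPKM for 2 of 8 genes and summed to 14.1 to 35.8 FPKM in KO and 1.77 to 3.57 FPKM in WT. Nearly all of it was Fabp4, at 13.6 to 35.3 FPKM in KO and 1.76 to 3.42 FPKM in WT, while Cfd, Cidec, Lep and Retn were at 0 in every library and Adipoq did not pass 0.07 FPKM. The sebaceous list summed to 0 to 0.232 FPKM in KO and 0.117 to 0.208 FPKM in WT, with Mc5r and Awat1 at 0 throughout. The keratinocyte list summed to 6.82 to 13.5 FPKM in KO and 4.18 to 5.66 FPKM in WT, and the macrophage list to 7.51 to 14.4 FPKM in KO and 10.5 to 13.6 FPKM in WT. The endothelial list summed to 1.34 to 3.35 FPKM in KO and 0.663 to 1.03 FPKM in WT. The melanocyte list stayed at or below 1.76 FPKM and the muscle list at or below 0.855 FPKM in each library.

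**Figure D1:**
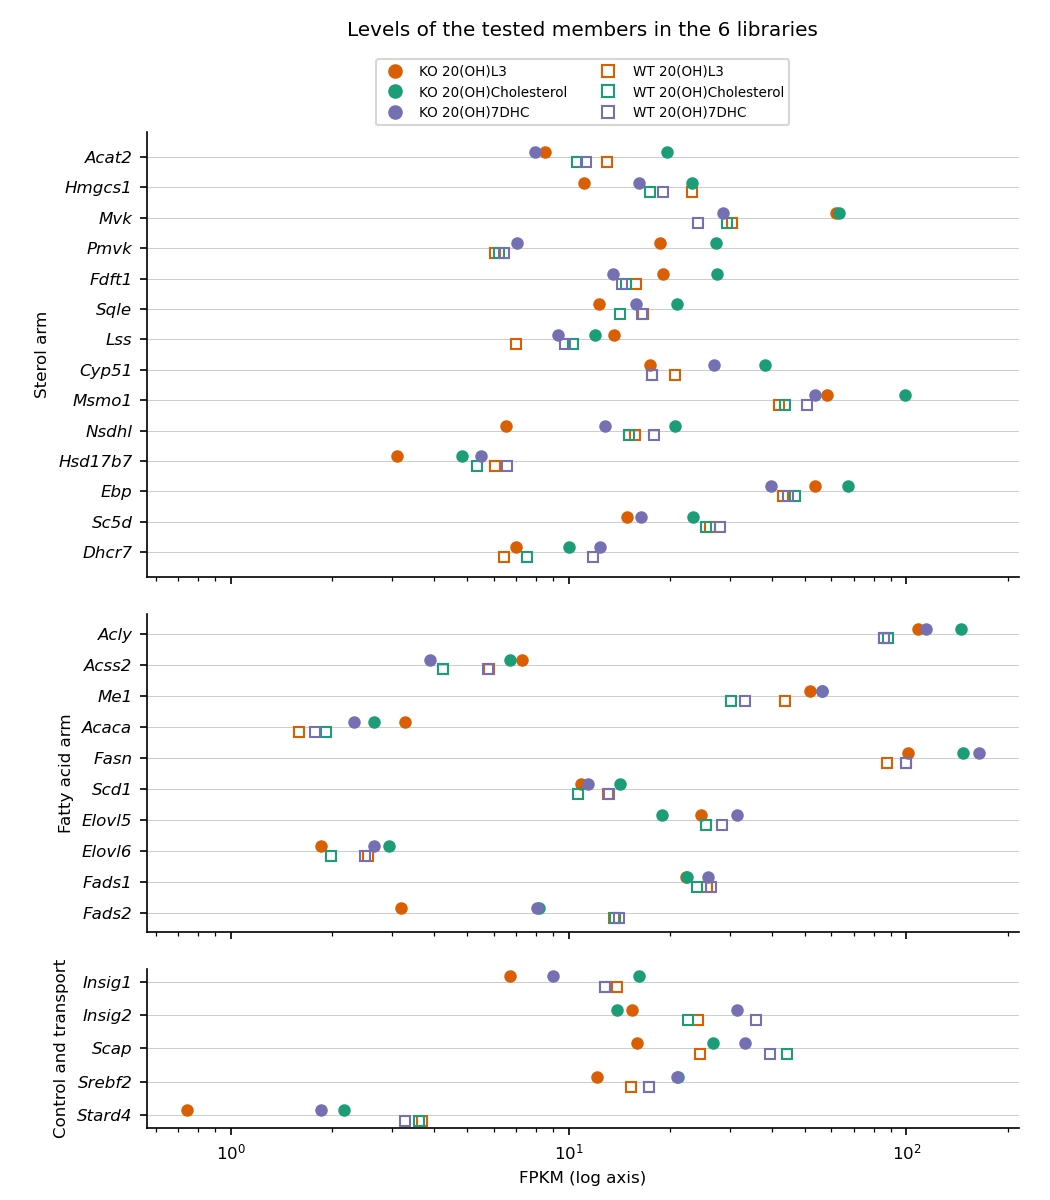
FPKM (log axis) of the 29 tested members in the 6 libraries, by arm; filled circles are KO and open squares WT, coloured by sterol, 1 library per point. In the sterol arm the KO points spread wider than the WT points for 13 of 14 genes, beside 85.7% of all rows. KO 20(OH)Cholesterol is the highest KO library for 11 of 14, and the share of all rows like this was not counted.

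The comparison of KO with WT asked whether the genotype sets the level of these genes under the same sterols. No member passed. limma, fitted to log2(FPKM + 1) with genotype and sterol as additive terms and Benjamini-Hochberg adjustment over all 12673 rows, called 0 of 29 members higher and 0 lower in KO, while 2.43% of all rows were called higher and 6.64% lower. The members' adjusted p ran between 0.0819 and 0.953. At an unadjusted p below 0.05 there were 6 of 29 members, 3 higher (Mvk, Pmvk and Me1) and 3 lower (Fads2, Scap and Stard4), beside 33.4% of all rows. In simulated data, 200 of 12673 rows were changed between genotypes. There the same fit recovered 1.1% of 2-fold and 62.2% of 4-fold changes. In the data 1150 rows were called, so the adjustment was less strict and these shares are not the recovery of this test. The largest pooled difference of a member was 1.19 (log2).

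The medians of the arms differed, and the ranges of their genes overlapped. Pooled log2 KO minus WT ranged between -0.55 and 1.19 in the sterol arm and -1.07 and 0.62 in the fatty acid arm. In control and transport it ranged between -0.85 and 0.07. The difference between arms was not tested. The pooled log2 KO minus WT had a median of 0.20 over the 14 tested genes of the sterol arm (9 higher, 5 lower), 0.09 over the 10 of the fatty acid arm (6 higher, 4 lower) and -0.49 over the 5 genes of control and transport (1 higher, 4 lower), beside 0.00 over all rows. Without the KO or the WT 20(OH)Cholesterol library the medians were 0.08 for the sterol arm and -0.02 for the fatty acid arm, and without the 20(OH)7DHC libraries 0.33 and 0.22, in that order of arms. With the length trend removed the sterol arm had a median of 0.19 and the fatty acid arm 0.26, so their order turned. With quantile normalization these medians were 0.24 for the sterol arm and 0.21 for the fatty acid arm. Within the fatty acid arm, the 5 genes of supply and synthesis had a median of 0.49, with 5 of 5 estimates above 0, and the 5 of elongation and desaturation a median of -0.11, with 4 of 5 below 0. In 6 of 29 members all KO libraries lay above all WT libraries (Pmvk, Msmo1, Acly, Me1, Acaca and Fasn), near the 20.2% of all rows that did so. In 3 of 29 (Sc5d, Fads2 and Stard4) all KO libraries lay below all WT libraries, against 22.9% of all rows, and 20 overlapped.

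**Figure D2:**
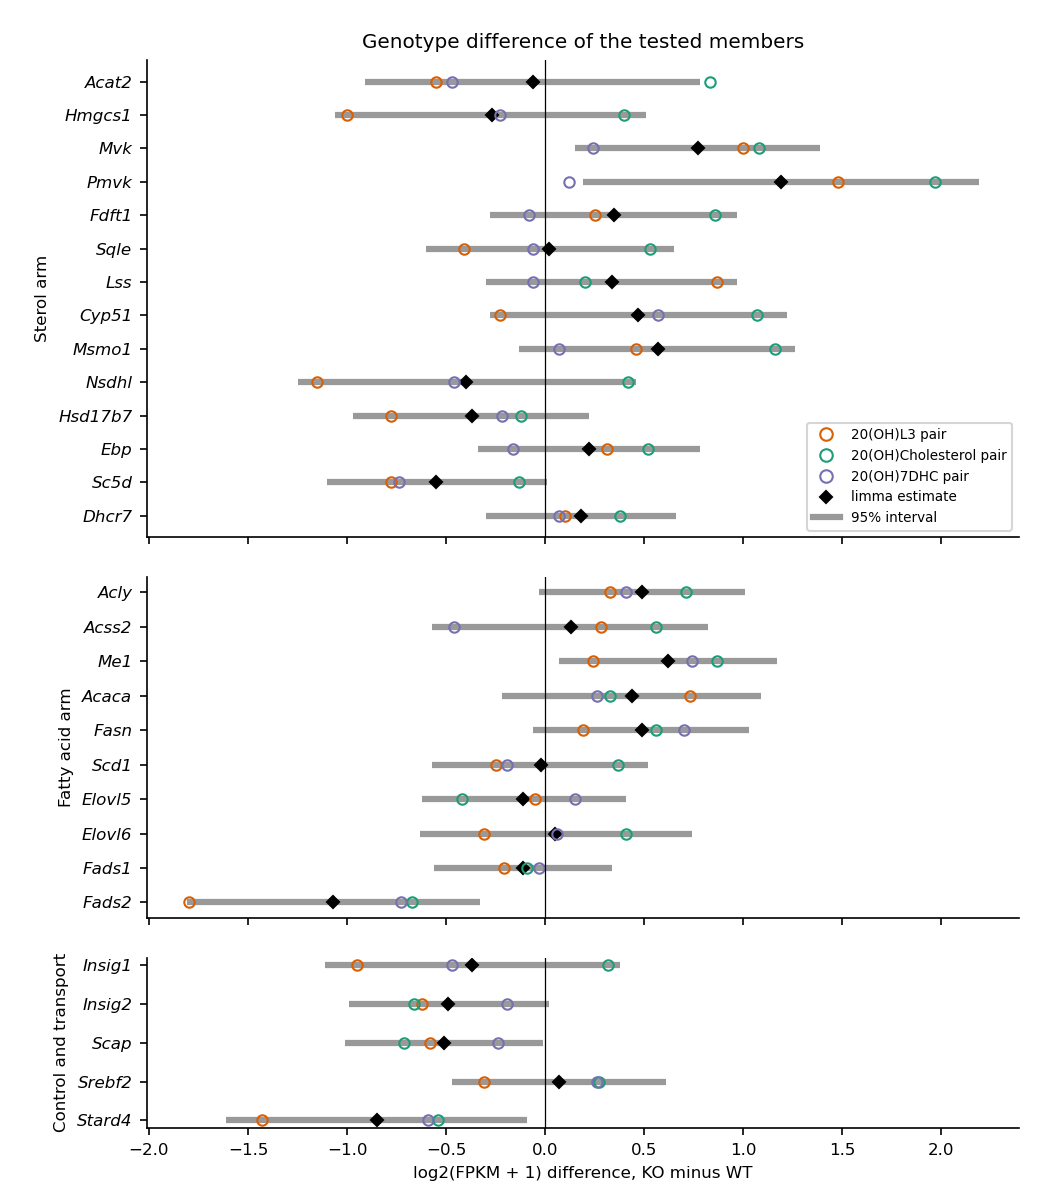
Difference in log2(FPKM + 1), KO minus WT, of the 29 tested members: open circles are the pair of libraries of each sterol, diamonds the pooled limma estimate and grey bars its 95% interval. The intervals of Mvk, Pmvk and Me1 lie above 0 and those of Fads2, Scap and Stard4 below 0, and none of the 6 passed after adjustment.

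At the head of the mevalonate path, the KO libraries were scattered on either side of WT. Acat2, the thiolase that joins acetyl units, had 8.53 FPKM in KO with 20(OH)L3, 19.6 with 20(OH)Cholesterol and 7.93 with 20(OH)7DHC, against 13.0, 10.6 and 11.3 FPKM in WT with these sterols in the same order. Hmgcs1 (chromosome 13), which makes HMG-CoA, had 11.1, 23.2 and 16.2 FPKM in KO and 23.2, 17.4 and 19.1 FPKM in WT, in that order of sterols. For both genes KO with 20(OH)Cholesterol was at the top of the KO libraries, and the groups overlapped. The pooled log2 KO minus WT was -0.06 for Acat2 (95% interval -0.91 to 0.78) and -0.27 for Hmgcs1 (-1.06 to 0.51).

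The kinases that phosphorylate mevalonate in succession had, with Me1, the only 95% intervals above 0 among the 29 tested members. Mvk (chromosome 5) had 61.8, 63.1 and 28.7 FPKM in KO with 20(OH)L3, with 20(OH)Cholesterol and with 20(OH)7DHC, against 30.5, 29.4 and 24.2 FPKM in WT. Pmvk (chr3:89454541-89469013, plus strand) had 18.7, 27.3 and 7.05 FPKM in KO and 6.04, 6.23 and 6.42 FPKM in WT, in the same order. KO with 20(OH)L3 and KO with 20(OH)Cholesterol stood clear of WT for both genes, while KO with 20(OH)7DHC was close to WT: per sterol, Pmvk differed by 1.48, 1.97 and 0.12 (log2). The pooled log2 difference was 0.77 for Mvk (SE 0.243, limma adjusted p 0.105) and 1.19 for Pmvk (SE 0.391, limma adjusted p 0.113). Without the KO or the WT 20(OH)7DHC library, or without both, these genes passed, with log2 differences of 1.04 for Mvk and 1.73 for Pmvk and limma adjusted p of 0.0427 to 0.0474. In these fits 8.16%, 8.64% and 8.99% of all rows were called higher in KO, so 2 of 29 members is not above the background. Without either 20(OH)Cholesterol library the differences were 0.62 for Mvk and 0.80 for Pmvk, with limma adjusted p of 0.450 to 0.454. The longest transcript of Pmvk is 1194 nt, the shortest of the tested members, in the length range that read high in these KO libraries. With the length trend of each library removed, its pooled log2 difference was 0.81 (limma adjusted p 0.134) and that of Mvk 0.70 (0.0891).

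**Figure D3:**
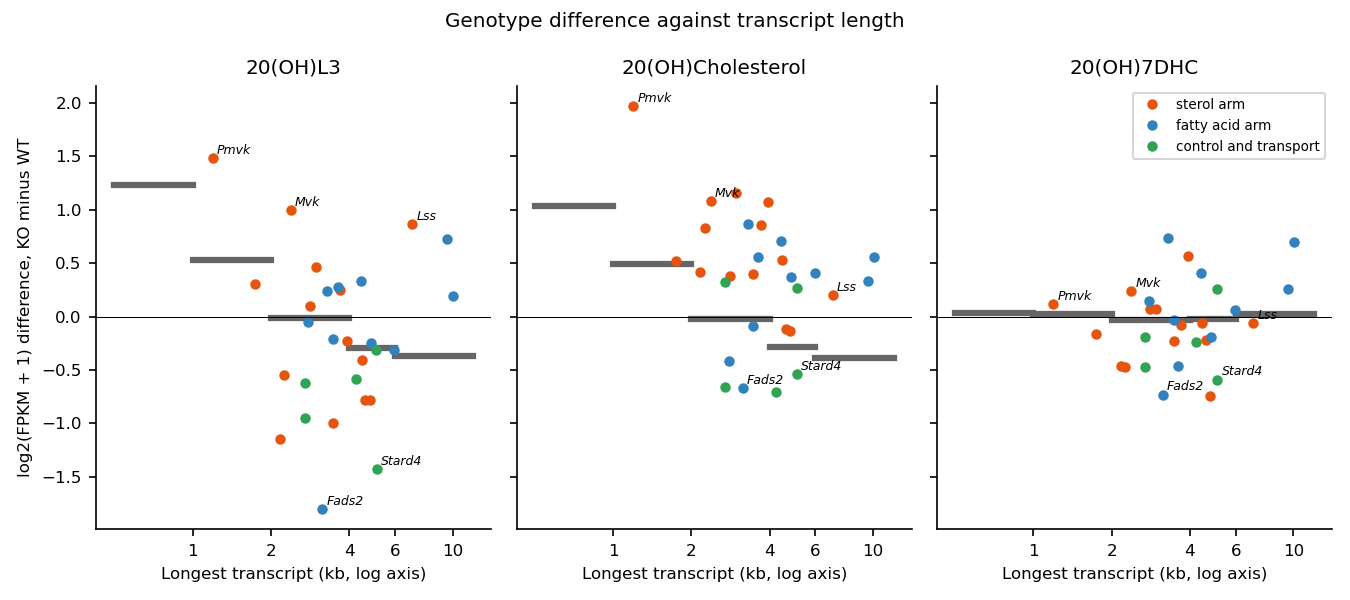
Difference in log2(FPKM + 1), KO minus WT, of the 29 tested members against the length of the longest transcript (kb, log axis). There is 1 panel per sterol, with 1 library per genotype. Points are members coloured by arm, and grey bars are the median of the tested protein-coding rows in each length bin. The bars fall with length with 20(OH)L3 and 20(OH)Cholesterol and lie near 0 with 20(OH)7DHC, and Pmvk lies above its bar in each panel.

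The row that merges Fdps, the farnesyl diphosphate synthase, with Gm43738 and Rusc1 had 45.4, 79.9 and 30.8 FPKM in KO and 27.1, 27.7 and 26.2 FPKM in WT, with 20(OH)L3, with 20(OH)Cholesterol and with 20(OH)7DHC in that order. Its pooled log2 difference was 0.81 (limma adjusted p 0.130), and the share of each gene in the row is unknown. Idi1, the isomerase before Fdps, was listed at 0 in KO with 20(OH)L3, KO with 20(OH)Cholesterol and WT with 20(OH)L3, and did not pass 0.18 FPKM in the others. It is not used further.

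From squalene to cholesterol, 7 of 10 pooled KO minus WT estimates were above 0 and 3 below. Msmo1, which removes methyl groups from the sterol ring, had 58.2, 99.0 and 53.5 FPKM in KO with 20(OH)L3, with 20(OH)Cholesterol and with 20(OH)7DHC, against 42.1, 43.7 and 50.8 FPKM in WT. All KO libraries were above all WT libraries, at 70.2 ± 25.0 FPKM in KO and 45.5 ± 4.65 FPKM in WT (SD, n = 3 each), though KO with 20(OH)7DHC was just above its WT pair. The pooled log2 difference was 0.57 (SE 0.269, limma adjusted p 0.207), against 0.27 without either 20(OH)Cholesterol library (limma adjusted p 0.652) and 0.38 with quantile normalization. Sc5d, the desaturase that makes 7-dehydrocholesterol, went the other way, with 14.9, 23.3 and 16.4 FPKM in KO and 26.3, 25.6 and 28.0 FPKM in WT, in the same order of sterols. Its groups did not overlap, and the log2 difference was -0.55 (SE 0.217, limma adjusted p 0.153), or -0.35 with the length trend removed.

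Nsdhl (chrX:72918557-72958514, plus strand), the dehydrogenase that acts with Msmo1, had 6.54, 20.6 and 12.8 FPKM in KO with 20(OH)L3, with 20(OH)Cholesterol and with 20(OH)7DHC, against 15.7, 15.1 and 17.9 FPKM in WT. The KO libraries lay on both sides of the narrow WT range. Lss, the lanosterol synthase that closes the rings, had 13.6, 12.0 and 9.29 FPKM in KO and 7.00, 10.3 and 9.74 FPKM in WT, in the same order. It has a transcript of up to 6992 nt and was the sterol arm gene whose KO level was highest with 20(OH)L3. Fdft1, Sqle, Cyp51, Hsd17b7, Ebp and Dhcr7 had pooled log2 differences between -0.37 (Hsd17b7) and 0.47 (Cyp51), all with overlapping groups. The row that merges Tm7sf2, a sterol reductase, with Gm28374, Vps51 and Zfpl1 had 82.3 to 141 FPKM in KO and 77.7 to 85.4 FPKM in WT.

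In the fatty acid arm, 4 of the 5 supply and synthesis genes were higher in all KO libraries than in any WT library, a pattern that 20.2% of all rows had. Me1, the malic enzyme that provides NADPH, had 52.0, 56.4 and 56.2 FPKM in KO with 20(OH)L3, with 20(OH)Cholesterol and with 20(OH)7DHC, against 43.8, 30.3 and 33.3 FPKM in WT. The groups did not overlap, at 54.9 ± 2.47 FPKM in KO and 35.8 ± 7.10 FPKM in WT (SD, n = 3 each), and the log2 difference was 0.62 (SE 0.214, limma adjusted p 0.123). Acly, which splits citrate to acetyl-CoA, had 108, 145 and 114 FPKM in KO and 85.9, 88.3 and 85.6 FPKM in WT. Fasn, the fatty acid synthase, had 101, 147 and 164 FPKM in KO and 87.8, 99.7 and 100 FPKM in WT, so that its lowest KO library was level with its highest WT library. Acaca, the carboxylase that commits acetyl-CoA to fatty acids, had 3.29, 2.65 and 2.32 FPKM in KO and 1.59, 1.92 and 1.78 FPKM in WT. For these 4 genes each of the 3 sterol pairs was higher in KO, by log2 differences between 0.19 and 0.87. Acss2, which makes acetyl-CoA from acetate, overlapped, with a log2 difference of 0.13.

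Fads2 (chr19:10062765-10101746, minus strand), the desaturase that starts the synthesis of polyunsaturated fatty acids, had the lowest limma p of the members. It had 3.20, 8.18 and 8.09 FPKM in KO with 20(OH)L3, with 20(OH)Cholesterol and with 20(OH)7DHC, against 13.6, 13.7 and 14.1 FPKM in WT. All WT libraries lay close together and above all KO libraries, and KO with 20(OH)L3 was the lowest, from an estimated 86 fragments. The log2 difference was -1.07 (SE 0.290, 95% interval -1.81 to -0.33, limma adjusted p 0.0819). Without the KO or the WT 20(OH)L3 library it was -0.70 (limma adjusted p 0.343 and 0.349). Its neighbour in the path, Fads1, did not share this, with 22.2 to 25.9 FPKM in KO and 24.0 to 26.4 FPKM in WT and a log2 difference of -0.11. Scd1, Elovl5 and Elovl6, a desaturase and elongases of long-chain fatty acids, had log2 differences of -0.02, -0.11 and 0.05. The row that merges Scd2 with Mir5114 had 30.5, 62.0 and 57.0 FPKM in KO and 57.8, 65.6 and 65.2 FPKM in WT; Scd1 and Scd2 are close paralogs, and how reads shared by them were counted is not given in the sources used here.

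Among the genes of control and transport, 4 of 5 estimates were below 0. Stard4, a carrier of cholesterol between membranes, had 0.74, 2.17 and 1.85 FPKM in KO with 20(OH)L3, with 20(OH)Cholesterol and with 20(OH)7DHC, against 3.69, 3.60 and 3.28 FPKM in WT, which came from an estimated 33, 82 and 120 fragments in KO and 228, 231 and 212 in WT. Every KO library was below every WT library, and the log2 difference was -0.85 (SE 0.296, limma adjusted p 0.124). It was -0.56 without either 20(OH)L3 library and -0.52 with quantile normalization. With a pseudocount of 0.1 it was larger, at -1.22. Without either 20(OH)Cholesterol library it was -1.01, and without either 20(OH)7DHC library -0.98. Scap (chr9:110333288-110384950, plus strand), the escort of the SREBPs, had 16.0, 26.7 and 33.3 FPKM in KO and 24.5, 44.2 and 39.4 FPKM in WT, a log2 difference of -0.51 (SE 0.195, limma adjusted p 0.145). It was lower in KO in each of the 3 sterol pairs, but the groups overlapped since both genotypes were lowest with 20(OH)L3.

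Insig2 (chromosome 1), which retains Scap, had 15.4, 13.9 and 31.5 FPKM in KO with 20(OH)L3, with 20(OH)Cholesterol and with 20(OH)7DHC, against 24.2, 22.5 and 36.0 FPKM in WT, a log2 difference of -0.49 (limma adjusted p 0.157). Insig1, the retention factor that is itself a target of the SREBPs, had 6.73, 16.2 and 8.97 FPKM in KO and 13.9, 12.8 and 12.8 FPKM in WT. Its WT libraries were nearly equal and its KO libraries lay on both sides of them. Srebf2, which encodes SREBP2, had 12.1, 21.1 and 20.9 FPKM in KO and 15.3, 17.3 and 17.3 FPKM in WT, a log2 difference of 0.07 (95% interval -0.47 to 0.61). The row that merges Srebf1, which encodes SREBP1, with Mir6922 had 18.1, 27.1 and 47.3 FPKM in KO and 41.4, 54.7 and 52.5 FPKM in WT, with KO 20(OH)L3 again the lowest. Its pooled log2 difference was -0.76 (95% interval -1.44 to -0.09, limma adjusted p 0.122). The share of each gene in this row is unknown.

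**Figure D4:**
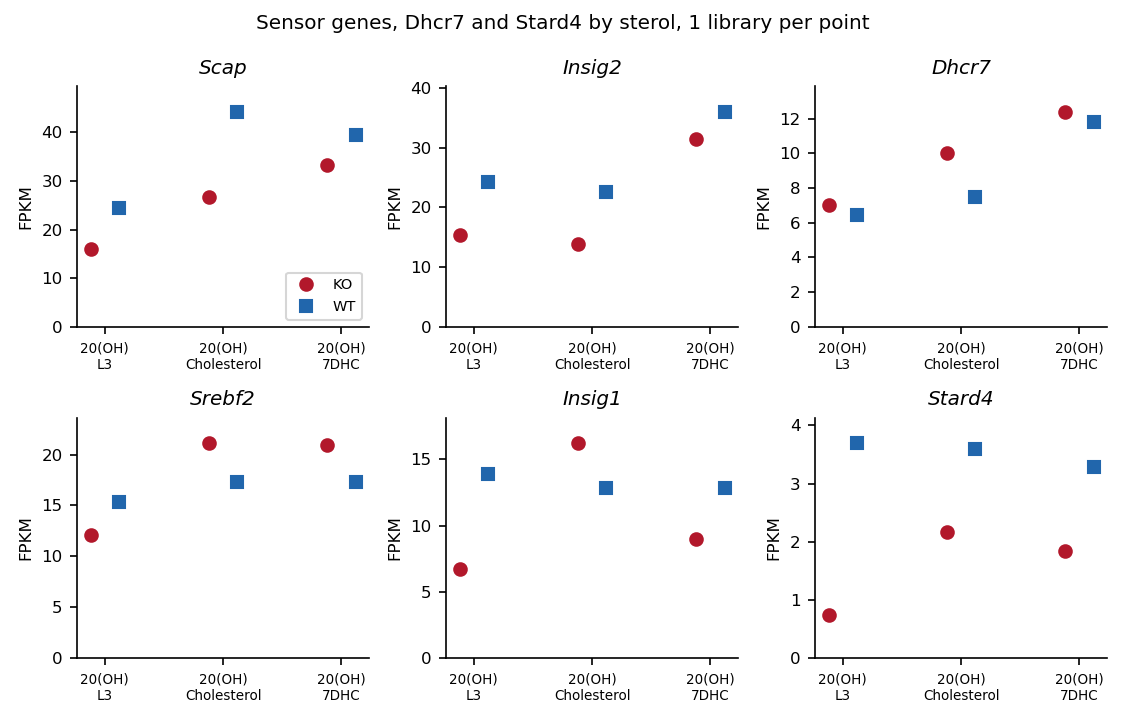
FPKM (linear axis from 0) by sterol of Scap, Insig2, Dhcr7, Srebf2, Insig1 and Stard4, with KO as circles and WT as squares, 1 library per point. Scap is lowest with 20(OH)L3 and Insig2 and Dhcr7 are highest with 20(OH)7DHC in both genotypes, whereas Insig1 varies in KO between 6.73 and 16.2 FPKM and in WT between 12.8 and 13.9 FPKM.

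Sterol by sterol, the genotype difference of the sterol arm was not the same size. With 20(OH)Cholesterol the median log2 KO minus WT of its 14 genes was 0.52, and 12 of 14 were higher in KO, beside 48.2% of all rows. With 20(OH)L3 the median was -0.06 and with 20(OH)7DHC -0.07. Over all rows these medians were 0.00 with 20(OH)L3, -0.02 with 20(OH)Cholesterol and 0.00 with 20(OH)7DHC. Members at least 1 apart (log2, a 2-fold difference in FPKM + 1) with 20(OH)Cholesterol were Cyp51, Msmo1, Mvk and Pmvk, all higher in KO, beside 14.3% of all rows higher and 15.4% lower. With 20(OH)L3 they were Pmvk, higher, and Fads2, Nsdhl and Stard4, lower, beside 17.0% of all rows higher and 16.5% lower. With 20(OH)7DHC there were 0 of 29 in each direction, beside 4.59% of all rows higher and 10.1% lower. These shares of members at least 1 apart are below the background, and each difference rests on 1 library a group.

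The comparison of the 3 sterols asked whether compounds that differ in the second ring and its junctions set different levels at the same dose and time. Over both genotypes no member differed past the threshold in any of the 3 pairs, with limma and adjustment over all rows and pairs. The smallest adjusted p of the 29 members was 0.891, and 0.0316% of all tests on rows were called in either direction. At an unadjusted p below 0.05 there were 3 members lower with 20(OH)L3 than with 20(OH)7DHC (3.80% of rows passed), 1 lower with 20(OH)Cholesterol than with 20(OH)7DHC (1.74%) and 1 lower with 20(OH)L3 than with 20(OH)Cholesterol (1.91%). In simulations of the same kind the fit recovered 13.5% of 4-fold changes between 20(OH)L3 and 20(OH)7DHC, so a miss does not show that the sterols act alike.

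The members with an unadjusted p below 0.05 in a sterol pair were Scap, Insig2 and Dhcr7, each with a limma adjusted p of at least 0.891. Scap had 16.0 and 24.5 FPKM with 20(OH)L3 in KO and WT, against 33.3 and 39.4 FPKM with 20(OH)7DHC, a pooled log2 difference of -0.84 (95% interval -1.45 to -0.22). Against 20(OH)Cholesterol, 20(OH)L3 gave -0.76 for Scap (-1.38 to -0.15). Insig2 had a log2 difference of -0.77 (95% interval -1.39 to -0.16) for 20(OH)L3 minus 20(OH)7DHC and of -0.89 (-1.51 to -0.28) for 20(OH)Cholesterol minus 20(OH)7DHC. Dhcr7, the reductase that turns 7-dehydrocholesterol into cholesterol, had 7.00 and 6.45 FPKM with 20(OH)L3 in KO and WT, against 12.4 and 11.8 FPKM with 20(OH)7DHC. Its log2 difference was -0.76 (95% interval -1.35 to -0.18) for that pair and -0.43 (-1.02 to 0.15) for 20(OH)Cholesterol minus 20(OH)7DHC. Members that differed by at least 0.5 (log2) with the same sign in both genotypes were these 3 of 29 for 20(OH)L3 minus 20(OH)7DHC (3.83% of all rows), Insig2 alone for 20(OH)Cholesterol minus 20(OH)7DHC (2.58%) and Scap alone for 20(OH)L3 minus 20(OH)Cholesterol (3.12%). The counts of 1 of 29 are near the background.

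Within KO, the sterol arm was lower with 20(OH)L3 than with 20(OH)Cholesterol in 13 of 14 genes, by a median log2 difference of -0.57 that ranged between -1.52 (Nsdhl) and 0.17 (Lss, the exception). Over all 29 members 24 were lower, with a median of -0.52, while over all rows the median was 0.00 and 48.9% were lower. The fatty acid arm had a median of -0.23 (7 of 10 lower) and control and transport -0.75 (4 of 5 lower). At least 1 lower were Nsdhl (-1.52), Insig1 (-1.15), Fads2 (-1.13), Acat2 (-1.11) and Cyp51 (-1.09), or 5 of 29, beside 5.23% of all rows, and none was at least 1 higher, beside 4.66%. Cyp51 and Acat2 lay just inside this threshold and Hmgcs1 just outside, at 11.1 FPKM with 20(OH)L3 and 23.2 FPKM with 20(OH)Cholesterol. With quantile normalization 3 of the 5 kept it, namely Fads2, Insig1 and Nsdhl, and with a pseudocount of 0.1 there were 7, with Hmgcs1 and Stard4 added.

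Within WT the same pair of sterols gave a median of 0.05 in the sterol arm, with 5 genes lower and 9 higher, and 0 of 29 members at least 1 apart, beside 2.03% of all rows lower and 1.48% higher. Nsdhl differed by 0.05, Insig1 by 0.11, Acat2 by 0.27 and Cyp51 by 0.21 (log2, 20(OH)L3 minus 20(OH)Cholesterol, in WT). Each value is from 1 library of each sterol, so whether the genotypes differ here was not tested. The libraries being compared in KO have the lowest depths of the 6 and a like length trend. They also differ in the Y-linked Eif2s3y, at 1.41 FPKM with 20(OH)L3 and 0 with 20(OH)Cholesterol.

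**Figure D5:**
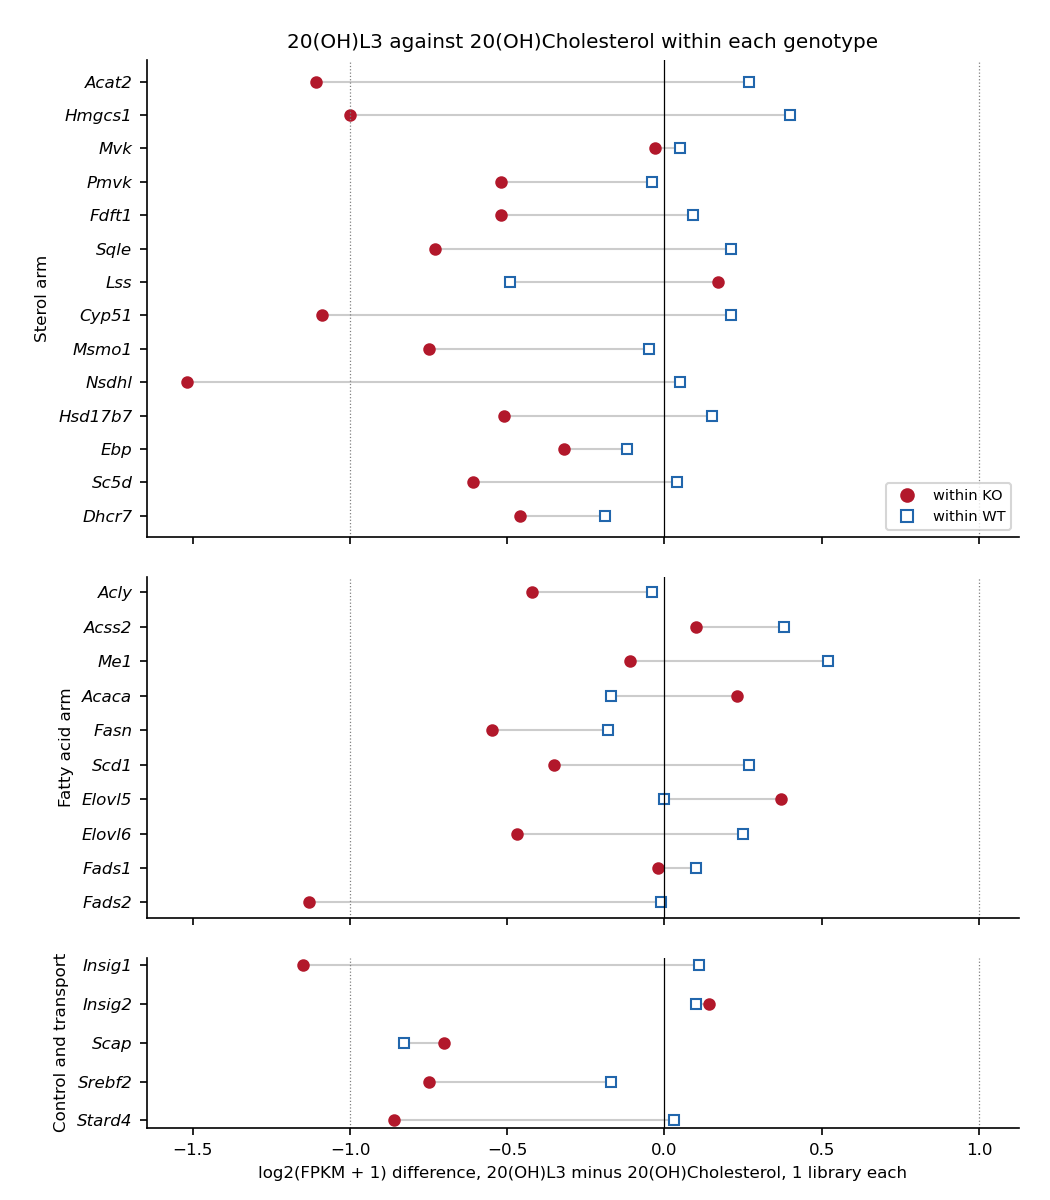
Difference in log2(FPKM + 1), 20(OH)L3 minus 20(OH)Cholesterol, of the 29 tested members within KO (filled circles) and within WT (open squares), from 1 library each; dotted lines mark a size of 1. In the sterol arm 13 of 14 KO points lie below 0, around a median of -0.57, while the WT points lie on both sides of 0 around 0.05.

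Against 20(OH)7DHC, the members furthest above it in KO were mevalonate genes. KO with 20(OH)Cholesterol was higher than KO with 20(OH)7DHC in 12 of 14 sterol arm genes (median 0.57), beside 51.1% of all rows. Pmvk, Acat2 and Mvk were at least 1 higher, beside 12.6% of all rows, and Insig2 was at least 1 lower, beside 8.20%. KO with 20(OH)L3 was at least 1 higher than KO with 20(OH)7DHC in Mvk and Pmvk, beside 14.8% of all rows, and at least 1 lower in Fads2 and Scap, beside 9.53%, with a sterol arm median of -0.02. In WT 0 of 29 members were at least 1 apart in these pairs, beside 1.42% of rows higher and 1.80% lower for 20(OH)L3 and 1.33% higher and 1.22% lower for 20(OH)Cholesterol. None of these shares of members at least 1 apart is above its background. All comparisons with KO 20(OH)7DHC share that library, which lacked the length trend of the other KO libraries.

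The spread over the 3 sterols was wider in KO than in WT for 27 of 29 members (93.1%), with a median log2 range of 0.75 in KO and 0.21 in WT. All rows were like this, at 85.7% wider in KO and median ranges of 0.75 in KO and 0.25 in WT. The sterol arm had a median range of 0.93 in KO and 0.24 in WT, and the fatty acid arm 0.44 in KO and 0.18 in WT.

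Of 51 other genes around the path, 43 were tested, and limma called 0 of them higher and 0 lower in KO (beside the 2.43% and 6.64% of all rows given above). The median log2 KO minus WT was -0.42 over 9 genes that process or degrade SREBPs and their partners, 0.18 over 9 of the isoprenoid and dolichol branch, -0.29 over 7 of cholesterol handling and 0.05 over 18 of fatty acid and triglyceride synthesis. The smallest p belonged to Rnf145, a ubiquitin ligase that acts on SCAP, with 14.7, 13.4 and 26.8 FPKM in KO with 20(OH)L3, with 20(OH)Cholesterol and with 20(OH)7DHC, against 38.9, 43.2 and 42.4 FPKM in WT. Its log2 difference was -1.20 (SE 0.251, limma adjusted p 0.0520). Lipa, the lysosomal lipase that frees cholesterol from its esters, had 11.2, 10.9 and 20.9 FPKM in KO and 30.9, 33.4 and 31.2 FPKM in WT (log2 difference -1.16, limma adjusted p 0.0584). Fnta, the shared subunit of the enzymes that attach isoprenoids to proteins, had 107, 71.2 and 50.2 FPKM in KO and 44.2, 38.0 and 43.0 FPKM in WT (log2 difference 0.79, limma adjusted p 0.115). In these 3 genes KO with 20(OH)7DHC was the KO library nearest to WT. It was not in Lpin1, of the fatty acid and triglyceride list, which had a smaller limma p than Fnta. Lpin1 had 2.43, 3.61 and 2.42 FPKM in KO and 4.69, 6.06 and 4.98 FPKM in WT, in that order of sterols (log2 difference -0.72, limma adjusted p 0.0906).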

How the data were processed

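The authors deposited FPKM for each gene row, as the table's header says. The submitters' processing notes name Cufflinks 2.2.1, STAR 2.5.4b, the build GRCm38 and Cuffdiff. Annotation, strand setting and multi-mapping rule were not given in the sources used here, so a gene and an overlapping antisense gene cannot be told apart. The series' design text names other compounds and an ethanol comparison, and the sample labels were followed. Genotypes are as labelled, and the check of the targeted gene is not reported here. Depth is not stated; it was estimated from low values, of which 97.0% to 98.0% per library were whole multiples of 1 fragment within 0.05.

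Tests used log2(FPKM + 1), which understates differences of low genes, on rows averaging 1 FPKM or more. An additive model of genotype and sterol was fitted with limma 3.58.1 (R 4.3.3) with an intensity trend (2 residual and 3.04 prior degrees of freedom, 2-sided, threshold 0.05). Genotype p-values were adjusted over 12673 rows, and sterol p-values over rows and 3 pairs together. Genotypes share sterols, not replicate numbers, so the sterol term is the block. Contrasts of 1 library with 1 library are values with no test. Transcript lengths and coordinates came from GENCODE M21. Members and lists were chosen with earlier results of these data known. Values per library are given for members with an adjusted p below 0.05, the same sign in all 3 sterols and a mean size of at least 0.5, one of the 6 largest ranges in a genotype, or a role in control and transport; Acly, Fasn, Acaca, Fads1 and the merged rows were added after their values were seen. Alternatives were another pseudocount, other filters, 2 scalings, removal of the length trend, a flat prior, dropping the sterol or the genotype term, and leaving out libraries. In 20 simulated runs with 200 changed rows of 12673, 88.1% of 8-fold genotype changes were recovered, with 5.7 false calls. Tables and figures were made in Python 3.11.15 (matplotlib 3.10.9, numpy 2.4.6, pandas 2.3.3).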

Additional observations from a re-analysis of the deposited data

Results flagged for a closer look

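Between the sterols, Nsdhl, Insig1, Acat2, Cyp51 and Pmvk differed by at least 1 (log2) within KO. Within WT they differed by 0.27 or less in size, with the opposite sign, and several of these values were near 0. The share of all rows with this pattern is not given here, and 85.7% of all rows had a wider range in KO than in WT. Each value compares 1 library with 1 library, and the difference between genotypes was not tested. For 20(OH)L3 minus 20(OH)Cholesterol, Nsdhl differed by -1.52 in KO and 0.05 in WT, Insig1 by -1.15 in KO and 0.11 in WT, Acat2 by -1.11 in KO and 0.27 in WT, and Cyp51 by -1.09 in KO and 0.21 in WT. Acat2 also differed for 20(OH)Cholesterol minus 20(OH)7DHC, by 1.21 in KO and -0.09 in WT. Pmvk differed by 1.29 in KO and -0.08 in WT for 20(OH)L3 minus 20(OH)7DHC, and by 1.82 in KO and -0.04 in WT for 20(OH)Cholesterol minus 20(OH)7DHC.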

How the results depend on the processing

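The number of rows called between genotypes was 1150 (308 higher, 842 lower in KO). It was 267 with no filter on low values (25 higher, 242 lower), 1418 with quantile normalization (576 higher, 842 lower), 2010 without both 20(OH)7DHC libraries (1139 higher, 871 lower) and 2071 with no sterol term, that is with no replicate block (735 higher, 1336 lower). Leaving out 1 library gave 0 to 1925, with 0 without the KO or the WT 20(OH)Cholesterol library; the partner of a library left out informs no genotype difference, so fewer libraries are compared. Members called were 0 under each other alternative, the one with no block included, and 0 to 2 when leaving out 1 library: Mvk and Pmvk were called without the KO or the WT 20(OH)7DHC library, and 2 without both. The 12 sterol calls became 0 with no filter, and ranged between 0 and 0 when 1 library was left out; members stayed at 0. Members at least 1 lower in KO with 20(OH)L3 than with 20(OH)Cholesterol were 5, 3 with quantile normalization and 7 with a pseudocount of 0.1. The KO minus WT sign turned for Acat2 (0.09 with quantile normalization, 0.14 without both 20(OH)7DHC libraries, between -0.51 and 0.18 when 1 library was left out), for Hmgcs1 (-0.61 to 0.09, the highest without the KO or WT 20(OH)L3 library) and for Srebf2 (-0.02 without both or either 20(OH)7DHC library, -0.03 to 0.26 when 1 library was left out, the lowest without either 20(OH)Cholesterol library); where the sign turned, limma adjusted p were 0.835 or more. The fatty acid arm median, 0.09, was -0.02 without either 20(OH)Cholesterol library. The sterol arm median of KO 20(OH)L3 minus KO 20(OH)Cholesterol stayed between -0.63 and -0.52 under the scalings, filters and pseudocount tried. The cause of these shifts was not tested. Depth limits Stard4, Pmvk, Fads2 and Elovl6 most, with estimated fragments as low as 33, 76, 86 and 97 in 1 library. Intervals cover 1 library per genotype and sterol. The filter at 5 FPKM leaves no value for Stard4. The sterol rows have no value without both 20(OH)7DHC libraries or without a sterol term, nor the genotype rows without a genotype term.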
